A study of Mus musculus with 6 samples.

Results

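The genes described here encode the mechanotransduction channel of the hair cell (HC) and the tip link that pulls on it. They are *Tmc1*, *Lhfpl5*, *Tmie*, *Cib2*, *Pcdh15* and *Cdh23*, chosen by name for the role of their proteins, and all 6 were among the 14865 genes listed in the deposited table. The study asked whether the loss of 1 copy of *Gfi1*, which encodes a transcription factor required in HCs, alters gene expression in the cochlea. RNA of the cochlear duct was sequenced from mice at postnatal day 8 (P8), labelled C57BL/6 and from a *Gfi1*cre line kept on C57BL/6J, with 3 libraries of *Gfi1*+/+ mice, which carry both copies of *Gfi1*, and 3 libraries of *Gfi1*cre/+ mice. In the latter, the coding sequence of Cre recombinase has been knocked in at 1 copy of *Gfi1*, so that Cre is made wherever that copy is active. RNA of both cochleae of 1 mouse went into a *Gfi1*+/+ library, whereas a *Gfi1*cre/+ library was a pool of 3 mice (6 cochleae), so a *Gfi1*cre/+ value is an average over animals and a *Gfi1*+/+ value is not. The values are counted reads divided by 1 size factor per library, called normalized reads below, and recovered reads per library ran from 13603908 to 19359753. Values of a genotype are given in the order of its replicates 1, 2 and 3.

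HCs convert sound into an electrical signal at the hair bundle, a staircase of actin-filled stereocilia on the apical surface. Adjacent stereocilia are joined by tip links, whose upper part is made of cadherin 23 and whose lower part is made of protocadherin 15. Deflection of the bundle tightens the tip link and opens the transduction channel at its lower end, a complex in which TMC1 forms the pore and which LHFPL5, TMIE and CIB2 join as further subunits. Loss of function of any of these 6 genes causes deafness in mice, and all 6 are deafness genes in humans. C57BL/6J mice carry the *ahl* allele of *Cdh23*, which is linked to age-related hearing loss, but the *Cdh23* genotype of the sequenced animals is not given in the sources used here.

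*Gfi1* itself, the targeted gene, was at 147, 160 and 152 normalized reads in *Gfi1*+/+ libraries and at 136, 130 and 139 in *Gfi1*cre/+ libraries. All *Gfi1*cre/+ libraries were below all *Gfi1*+/+ libraries, with a log2 fold change of -0.18 (SE 0.0975, limma, unadjusted p = 0.0945). These reads include exons that both alleles share, so the gene total is only a partial check of the genotype. The libraries also differed in other ways. The summed reads of 4 Y-linked genes were at most 2.10 in the *Gfi1*+/+ libraries and 794 to 1621 in the *Gfi1*cre/+ libraries, so sex and genotype cannot be told apart. *Gfi1*+/+ replicate 1 stood apart on the first principal component, at -44.0 against -0.304 to 16.2 for the other libraries, and its summed neuron markers were 17742 against 8213 to 12383. Some abundant RNAs also split the *Gfi1*+/+ libraries, as *Rn7sk*, a small nuclear RNA, was at 18968 and 6492 normalized reads in replicates 1 and 3 against 152 in replicate 2 and 87.9 to 913 in the *Gfi1*cre/+ libraries. *Lars2* was at 36130 and 18899 against 4308 in the same libraries, and at 3848 to 5953 in *Gfi1*cre/+. The part of animal sex, of neuronal RNA and of these RNAs in the values below was not tested.

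HCs are a small share of the cells of the cochlear duct, and their markers were detected in every library. Of 20 HC marker genes, 18 were listed, and their summed level was 12177 to 13185 normalized reads in *Gfi1*+/+ and 11769 to 12106 in *Gfi1*cre/+, so that the groups did not overlap. The gap was narrow, 12106 against 12177. Bulk RNA cannot tell the number of HCs from the RNA per HC, and the part of other differences between the libraries in this gap was not tested. Of the same 18 genes, 14 had a log2 fold change below 0, against 50.1% of all tested genes, with a median of -0.09. *Pvalb*, which encodes the calcium-binding protein parvalbumin, was the only gene of the list with an unadjusted p below 0.05, with a log2 fold change of -0.47 (limma, unadjusted p = 0.0063). None of the 18 passed the Benjamini-Hochberg adjusted threshold of 0.05. The genes of the transduction complex are used in HCs, and the log2 fold change relative to the mean of these markers is given for each of them below. All values are of whole duct RNA, and the share of the reads of each gene that came from HCs was not tested.

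In the GRCm38 build (GENCODE annotation), *Tmc1* (ENSMUSG00000024749) lies at chr19:20783458-20954202 on the minus strand and *Lhfpl5* (ENSMUSG00000062252) at chr17:28575641-28585679 on the plus strand. *Tmie* (ENSMUSG00000049555) lies at chr9:110865711-110880113 and *Cib2* (ENSMUSG00000037493) at chr9:54544794-54560218, both on the minus strand. *Pcdh15* (ENSMUSG00000052613) spans chr10:73099342-74649737 on the plus strand, and *Cdh23* (ENSMUSG00000012819) spans chr10:60302748-60696490 on the minus strand. The merged exons range from 1433 bases in *Cib2*, which has 1 annotated transcript, to 23773 bases in *Pcdh15*, which has 41. *Tmie* shares 244 exon bases (7.89% of its exons) with *Als2cl* on the opposite strand, and *Cib2* shares 227 (15.8%) with *Sh2d7* on the opposite strand, which was not analysed here. The other 4 genes share no exon bases with another annotated gene. The strand setting of the counting is not given in the sources used here, so reads from the shared stretches cannot be assigned to a strand from these values.

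The stretches just upstream of *Tmie*, *Lhfpl5* and *Cib2* are shown because these are the 3 genes whose *Gfi1*cre/+ and *Gfi1*+/+ libraries did not overlap. They are RefSeq sequence of GRCm38.p6, written 5′ to 3′ on the strand of the gene, at chr9:110880114-110880323, chr17:28575469-28575640 and chr9:54560219-54560440. Capitals mark AATC or its reverse complement GATT, the core of the sequence that GFI1 binds.
Tmie: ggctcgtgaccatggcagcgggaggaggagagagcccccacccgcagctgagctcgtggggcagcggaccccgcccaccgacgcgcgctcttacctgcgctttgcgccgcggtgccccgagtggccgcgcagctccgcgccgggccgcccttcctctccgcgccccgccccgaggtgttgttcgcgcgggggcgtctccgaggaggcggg
Lhfpl5: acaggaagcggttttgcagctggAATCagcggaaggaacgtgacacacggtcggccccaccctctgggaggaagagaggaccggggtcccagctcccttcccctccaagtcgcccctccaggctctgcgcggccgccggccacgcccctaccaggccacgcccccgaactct
Cib2: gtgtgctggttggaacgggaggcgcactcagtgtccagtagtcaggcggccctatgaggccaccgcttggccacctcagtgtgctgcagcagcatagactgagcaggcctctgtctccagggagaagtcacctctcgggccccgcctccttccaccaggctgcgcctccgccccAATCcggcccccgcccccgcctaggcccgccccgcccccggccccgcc
The core was absent from the *Tmie* stretch and occurred 1 time each in those of *Lhfpl5* and *Cib2*. In the full 250 bases upstream of the start that RefSeq gives, it occurred 2 times in *Tmc1*, 1 time in *Pcdh15* and 0 times in *Cdh23*. For *Pcdh15* this start lies inside the span given above, with the window at chr10:73821617-73821866, so it is not upstream of the GENCODE start of the gene. Of 32841 mouse promoter windows of this length, 69.0% held at least 1 core, so a match is common. The longer form AAATCAC (or GTGATTT) was in 2.75% of the windows and in 0 of the 6 genes. The GC content of the 250 bases was 74.8% in *Tmie*, 70.8% in *Lhfpl5*, 71.2% in *Cib2*, 41.2% in *Tmc1*, 50.4% in *Pcdh15* and 54.4% in *Cdh23*. A match of these letters is a description and not a binding site.

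All 6 genes were expressed in all 6 libraries, at very different levels per length. Per kilobase (kb) of merged exons, the mean level in *Gfi1*+/+ was highest for *Cib2*, at 637 ± 7.10 normalized reads (SD, n = 3), which was above 90.0% of the listed genes. *Tmie* followed at 118 ± 2.76 and *Lhfpl5* at 92.6 ± 1.20. The pore gene *Tmc1* was at 34.4 ± 5.20, and the tip link genes were lowest, with *Cdh23* at 27.0 ± 1.72 and *Pcdh15* at 5.90 ± 1.82. *Cib2* thus exceeded *Pcdh15* by 107.8-fold in *Gfi1*+/+ and 104.3-fold in *Gfi1*cre/+. *Myo7a*, an HC myosin at the upper end of the tip link, was at 79.3 ± 9.86 on the same scale. These are levels in whole duct RNA and not in HCs alone.

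The order was the same in *Gfi1*cre/+, where the levels per kb of merged exons were 591 ± 21.8 for *Cib2*, 144 ± 9.86 for *Tmie*, 85.9 ± 3.86 for *Lhfpl5*, 29.6 ± 3.49 for *Tmc1*, 25.6 ± 1.66 for *Cdh23* and 5.67 ± 0.290 for *Pcdh15* (SD, n = 3). Neighbours in this order had ranges over libraries that did not overlap, except *Tmc1* and *Cdh23*, whose ranges overlapped in *Gfi1*+/+. The values depend on the length used, since merged exons of a gene with many transcripts exceed any single transcript. Per kb of the longest transcript, *Cib2* exceeded *Pcdh15* by 41.3-fold in *Gfi1*+/+ and 39.9-fold in *Gfi1*cre/+. On that scale *Lhfpl5* (137 normalized reads per kb) was above *Tmie* (131) in *Gfi1*+/+, whereas *Tmie* (159) was above *Lhfpl5* (127) in *Gfi1*cre/+.

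**Figure D1:**
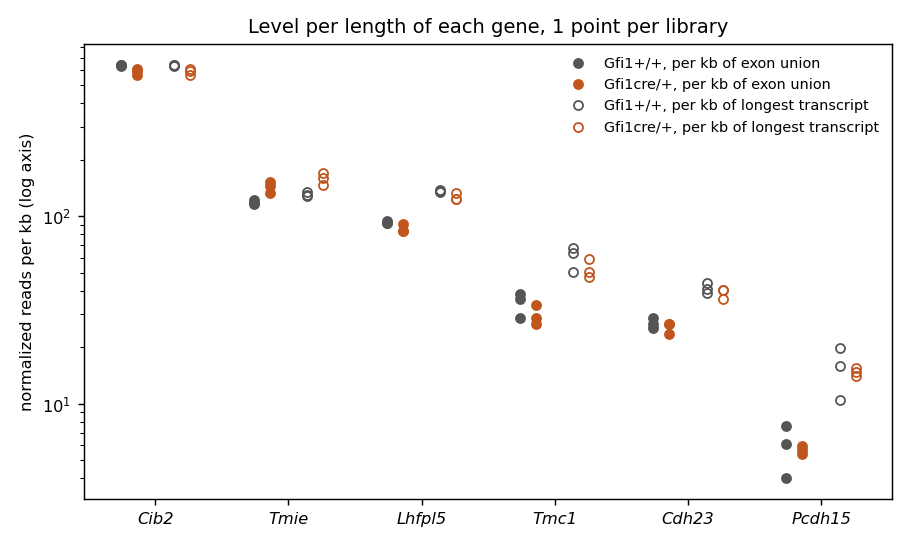
Normalized reads per kb (log axis) of the 6 genes, 1 point per library, for *Gfi1*+/+ (grey) and *Gfi1*cre/+ (orange), with filled points per kb of merged exons and open points per kb of the longest transcript. *Cib2* lies highest and *Pcdh15* lowest on both scales, while *Tmie* and *Lhfpl5* change places in *Gfi1*+/+ with the length used.

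Between the genotypes, *Tmie* was the gene with the clearest difference and was higher in *Gfi1*cre/+, while the other 5 genes had log2 fold changes between -0.21 and -0.01. A log2 fold change below 0 was thus found in 5 of 6, against 50.1% of all tested genes. None of the 6 passed the adjusted threshold of 0.05 (limma on log2(normalized reads + 1), Benjamini-Hochberg over 14455 genes, adjusted p = 0.999 for each). It was passed by 0.0277% of the tested genes, which were the 4 Y-linked genes summed above. With edgeR and DESeq2 on the recovered reads, 0 of the 6 passed as well. At an unadjusted p below 0.05 there was 1 of 6, *Tmie*, against 3.04% of tested genes, or 1.02% counting only higher and 2.02% counting only lower genes. The libraries of the 2 genotypes did not overlap in 3 of 6, against 7.52% of tested genes, with *Tmie* higher (3.45% of tested genes) and *Lhfpl5* and *Cib2* lower (4.07%). The median log2 fold change of the 6 was -0.09, and that of all tested genes was -0.00012. With 3 libraries against 3, an exact permutation test cannot give a two-sided p below 0.1. A p above the threshold does not show that levels were equal, and with replicates that are 1 mouse or 1 pool each, the p-values measure the spread between these libraries.

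**Figure D2:**
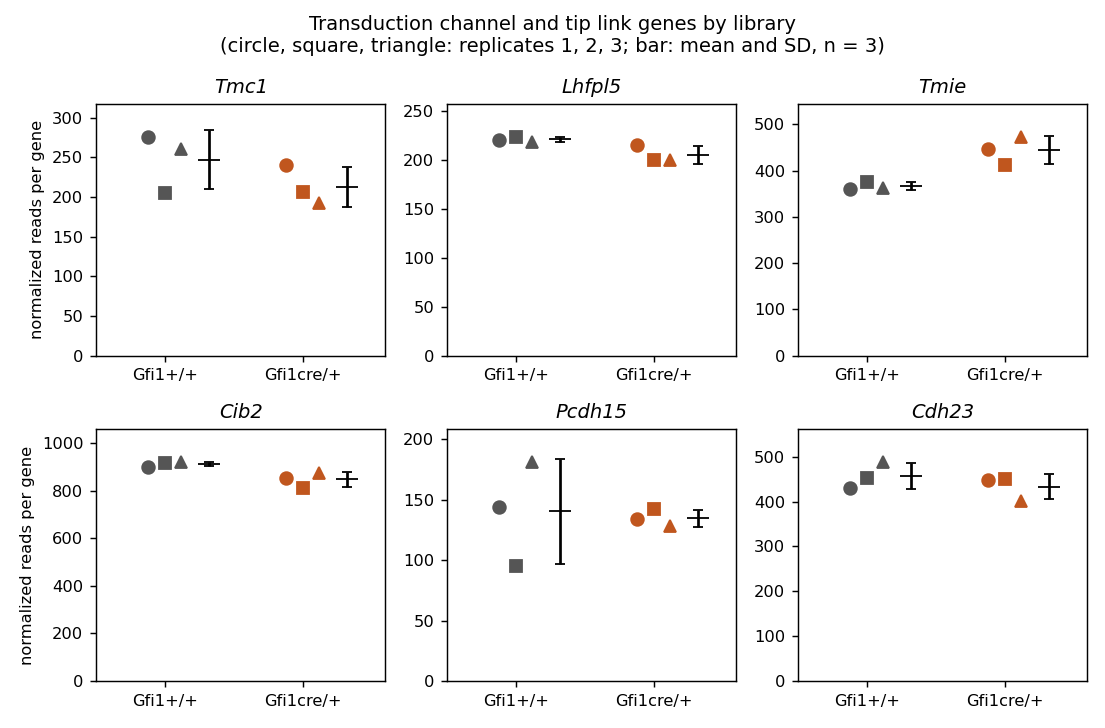
Normalized reads of each gene in the 6 libraries (grey *Gfi1*+/+, orange *Gfi1*cre/+; circle, square and triangle are replicates 1, 2 and 3; the bar gives the mean and SD, n = 3). The groups do not overlap for *Tmie*, *Lhfpl5* and *Cib2*, and the 3 *Pcdh15* values of *Gfi1*+/+ spread from 95.3 to 181.

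*Tmc1*, which encodes the pore-forming subunit of the mature channel, was at 276, 205 and 261 normalized reads in *Gfi1*+/+ libraries and at 241, 206 and 192 in *Gfi1*cre/+ libraries. The groups overlapped, with *Gfi1*+/+ replicate 2 within the range of the *Gfi1*cre/+ libraries. The means were 247 ± 37.4 and 213 ± 25.1 (SD, n = 3), a log2 fold change of -0.21 (SE 0.132, 95% interval -0.51 to 0.09, limma, unadjusted p = 0.147). Between 196 and 277 reads lay behind each value, and the SD of log2 values was 0.227 in *Gfi1*+/+ and 0.166 in *Gfi1*cre/+, against 0.0972 and 0.0943 from read counting alone. The size of the difference depended on single libraries. Without *Gfi1*+/+ replicate 2 the log2 fold change was -0.34 (limma, unadjusted p = 0.0197), without *Gfi1*+/+ replicate 1 it was -0.12 and without *Gfi1*cre/+ replicate 3 it was -0.14. It was -0.11 with array weights, which weight libraries by their scatter, and -0.13 relative to the mean of the HC markers. *Tmc2*, the paralogue used early in bundle development, was not analysed here.

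*Tmie*, which encodes a small transmembrane subunit of the channel complex, was at 360, 376 and 362 normalized reads in *Gfi1*+/+ libraries. In *Gfi1*cre/+ libraries it was at 446, 413 and 474. Every *Gfi1*cre/+ library was above every *Gfi1*+/+ library. The means were 366 ± 8.55 and 444 ± 30.5 (SD, n = 3), a ratio of 1.21 and a log2 fold change of 0.28 (SE 0.0734, 95% interval 0.11 to 0.44, limma, unadjusted p = 0.00441, exact permutation p = 0.1). It ranked 23 among the 14455 genes by p, and 1.99% of the tested genes had a log2 fold change as high or higher. Each value rested on 292 to 513 reads, which give a pooled ratio of 1.21 with a 95% interval of 1.12 to 1.31 (counting error only). The SD of log2 values in *Gfi1*+/+, 0.0334, was below the 0.0796 that read counting alone gives. In *Gfi1*cre/+ it was 0.0993 against 0.0650. The *Gfi1*+/+ libraries thus lay closer together than counting error would on average put them.

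The difference in *Tmie* kept its direction and an unadjusted p below 0.05 in limma without each library in turn, with log2 fold changes from 0.23 to 0.33. Relative to the mean of the HC markers it was 0.35. *Als2cl*, the gene that shares exon bases with *Tmie* on the other strand, was at 820, 980 and 1059 normalized reads in *Gfi1*+/+ libraries and at 1056, 1017 and 973 in *Gfi1*cre/+ libraries. The groups overlapped for *Als2cl* (log2 fold change 0.10), and its part in the *Tmie* value was not tested.

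*Lhfpl5*, which encodes a tetraspan protein that binds protocadherin 15 at the lower end of the tip link, was at 221, 224 and 218 normalized reads in *Gfi1*+/+ libraries and at 216, 199.7 and 200.03 in *Gfi1*cre/+ libraries. All *Gfi1*cre/+ libraries were lower, the nearest pair being *Gfi1*+/+ replicate 3 and *Gfi1*cre/+ replicate 1. The means were 221 ± 2.86 and 205 ± 9.22 (SD, n = 3), a log2 fold change of -0.11 (SE 0.0813, 95% interval -0.29 to 0.08, limma, unadjusted p = 0.216, exact permutation p = 0.1). The SD of log2 values in *Gfi1*+/+, 0.0186, was below the 0.102 that read counting alone gives for 179 to 248 reads. The 3 libraries therefore lay closer together than counting error would on average put them, and the gap between the groups was within that error, with a pooled ratio of 0.929 (95% interval 0.832 to 1.04, counting error only).

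*Cib2*, which encodes a calcium- and integrin-binding subunit of the complex, was at 901, 915 and 921 normalized reads in *Gfi1*+/+ libraries and at 854, 813 and 875 in *Gfi1*cre/+ libraries. All *Gfi1*cre/+ libraries were below all *Gfi1*+/+ libraries. The means were 912 ± 10.2 and 847 ± 31.3 (SD, n = 3), a log2 fold change of -0.11 (SE 0.0556, 95% interval -0.23 to 0.02, limma, unadjusted p = 0.0857, exact permutation p = 0.1). A log2 fold change this low or lower was found in 15.8% of the tested genes. With 730 to 981 reads behind each value, *Cib2* was the most deeply counted of the 6, and its pooled ratio was 0.927 (95% interval 0.879 to 0.979, counting error only). Its SD of log2 values was 0.0161 in *Gfi1*+/+, below the 0.0504 from read counting alone, and 0.0536 against 0.0470 in *Gfi1*cre/+. Here too the *Gfi1*+/+ libraries lay closer together than counting error would on average put them. Relative to the mean of the HC markers, whose *Gfi1*cre/+ minus *Gfi1*+/+ difference was -0.08 on the log2 scale, the log2 fold changes of both *Cib2* and *Lhfpl5* were -0.03, and relative to *Myo7a* both were -0.07.

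*Pcdh15*, which encodes the lower part of the tip link, was at 144, 95.3 and 181 normalized reads in *Gfi1*+/+ libraries and at 134, 142 and 128 in *Gfi1*cre/+ libraries. All 3 *Gfi1*cre/+ libraries lay inside the range of the *Gfi1*+/+ libraries. The means were 140 ± 43.2 and 135 ± 6.89 (SD, n = 3), a log2 fold change of -0.01 (SE 0.205, 95% interval -0.48 to 0.45, limma, unadjusted p = 0.959). The SD of log2 values was 0.467 among the single mice of *Gfi1*+/+ and 0.0729 among the pools of *Gfi1*cre/+, where counting alone gives 0.133 and 0.118 at 91 to 172 reads. Differences within this interval are compatible with the values. It was computed with 1 spread for both groups, although their spreads differed. Without *Gfi1*+/+ replicate 2 the log2 fold change was -0.26, and without *Gfi1*+/+ replicate 3 it was 0.20, so its direction rests on single libraries. Relative to the HC markers it was 0.06. *Pcdh15* and *Tmc1* were both lowest among the *Gfi1*+/+ libraries in replicate 2, the library in which *Rn7sk* and *Lars2* were lowest too. The summed HC markers were also lowest in that library, at 12177 against 12647 and 13185, but their mean log2 level was not. The part of these differences between libraries was not tested.

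*Cdh23*, which encodes the upper part of the tip link, was at 431, 452 and 488 normalized reads in *Gfi1*+/+ libraries and at 449, 450 and 401 in *Gfi1*cre/+ libraries. The groups overlapped, although the lowest value was in *Gfi1*cre/+ and the highest in *Gfi1*+/+. The means were 457 ± 29.1 and 433 ± 28.0 (SD, n = 3), a log2 fold change of -0.08 (SE 0.0783, 95% interval -0.25 to 0.10, limma, unadjusted p = 0.351). With 1 library left out, the difference ranged from -0.12 without *Gfi1*+/+ replicate 1 to -0.02 without *Gfi1*cre/+ replicate 3, and it was -0.03 without *Gfi1*+/+ replicate 3. It was -0.04 relative to *Myo7a* and -0.0015 relative to the HC markers.

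**Figure D3:**
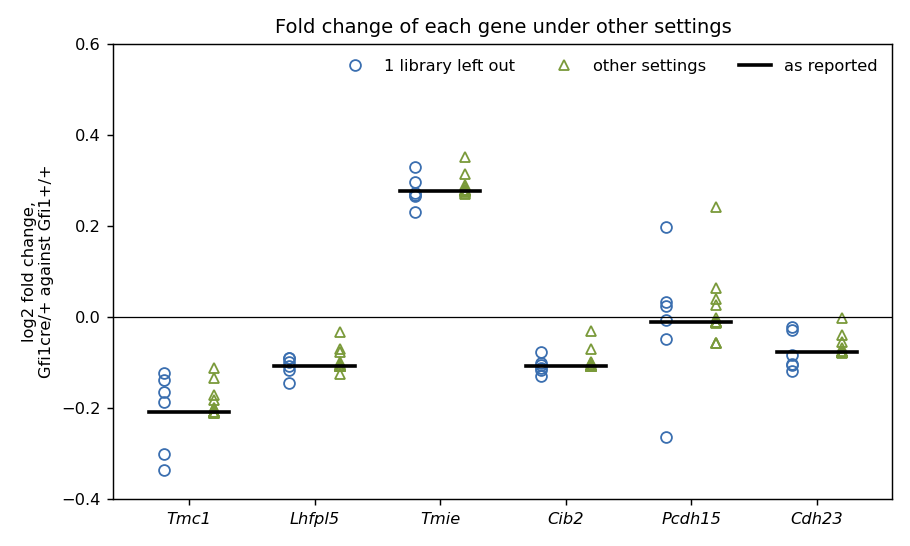
Log2 fold change of each gene (*Gfi1*cre/+ against *Gfi1*+/+) as reported (black bar), with 1 library left out (blue circles) and under the other settings (green triangles). *Tmie* stays between 0.23 and 0.35, and *Pcdh15* lies on both sides of 0.

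Ratios between the genes within a library do not depend on the library's scaling. *Tmie* was 1.65 times *Lhfpl5* in *Gfi1*+/+ and 2.16 times in *Gfi1*cre/+, as geometric means of normalized reads per gene. The log2 ratios were 0.70, 0.74 and 0.73 in *Gfi1*+/+ libraries and 1.05, 1.04 and 1.24 in *Gfi1*cre/+ libraries. They did not overlap, and their means differed by 0.39. Against *Cib2*, the log2 ratios of *Tmie* were -1.32, -1.28 and -1.35 in *Gfi1*+/+ libraries and -0.93, -0.98 and -0.88 in *Gfi1*cre/+ libraries, a difference of 0.38. The difference in log2 ratio was 0.49 against *Tmc1* and 0.35 against *Cdh23*, again without overlap. Against *Pcdh15* it was 0.29 and the groups overlapped (exact permutation p = 0.5), while leaving out *Gfi1*+/+ replicate 3 gave 0.07 and leaving out *Gfi1*+/+ replicate 2 gave 0.56.

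These differences combine the fold changes given above and are no separate evidence for *Tmie*. The exact permutation p of the 4 ratios without overlap was 0.1, the smallest that 3 against 3 allows, and 0.375 after Benjamini-Hochberg adjustment over the 15 pairs among the 6 genes, so none passed. *Lhfpl5* and *Cib2* held the steadiest ratio, with an SD of the log2 ratio of 0.04999 over the 6 libraries and a genotype difference of -0.0008. *Lhfpl5* and *Cdh23* followed with an SD of 0.0864, and *Cib2* and *Cdh23* with 0.102. Read counting alone gives *Lhfpl5* an SD of 0.102 in *Gfi1*+/+ and 0.0957 in *Gfi1*cre/+. The ratios of *Lhfpl5* to *Cib2* and to *Cdh23* were thus steadier than that counting error, which does not show that these genes vary together. The ratio of the tip link genes *Pcdh15* and *Cdh23* had an SD of 0.278 and differed by 0.07 between genotypes.

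**Figure D4:**
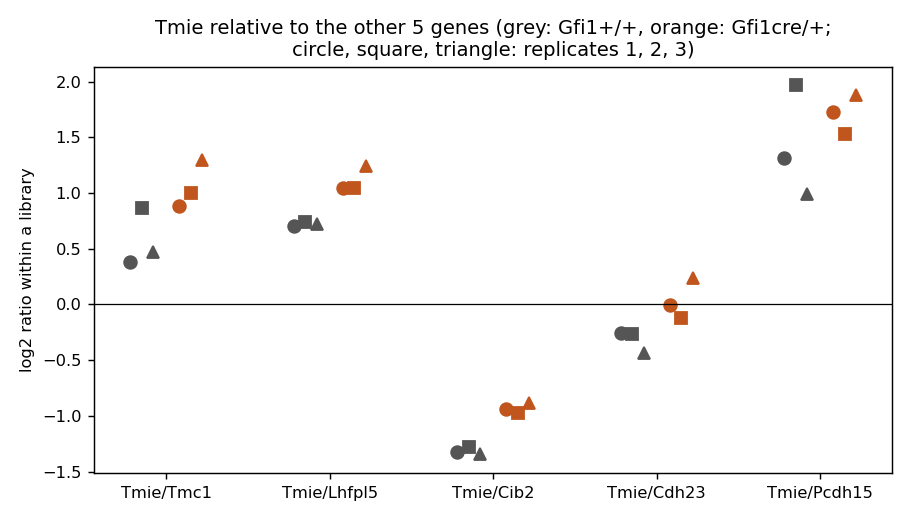
Log2 ratio of *Tmie* to each of the other 5 genes within a library (grey *Gfi1*+/+, orange *Gfi1*cre/+; circle, square and triangle are replicates 1, 2 and 3). The groups are apart for *Tmc1*, *Lhfpl5*, *Cib2* and *Cdh23* and overlap for *Pcdh15*.

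Other genes of the transduction apparatus were compared in the same fit. Of 12 such genes, 9 were listed and 8 tested, and 0 of the 8 passed at an adjusted or at an unadjusted p below 0.05 in limma. Their median log2 fold change was -0.06, with 5 of 8 below 0. *Tmc2*, *Cib3* and *Clrn2* were not analysed here.

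*Tomt*, which encodes a protein needed to bring TMC1 to the bundle, was at 42.0, 50.3 and 51.7 normalized reads in *Gfi1*+/+ libraries and at 57.4, 45.3 and 46.2 in *Gfi1*cre/+ libraries, with overlapping groups and a log2 fold change of 0.05. The genes for proteins at the upper tip link attachment are *Myo7a*, *Ush1c*, which encodes harmonin, and *Ush1g*, which encodes SANS. *Myo7a* was at 601, 669 and 769 in *Gfi1*+/+ and 647, 691 and 641 in *Gfi1*cre/+ libraries, a log2 fold change of -0.04, which turned to 0.06 when *Gfi1*+/+ replicate 3 was left out and to -0.12 when *Gfi1*+/+ replicate 1 was. *Ush1c* was at 2003, 1982 and 1975 in *Gfi1*+/+ and 1929, 1898 and 1802 in *Gfi1*cre/+, without overlap and with a log2 fold change of -0.08 (limma, unadjusted p = 0.141). *Ush1g* was below the minimum of 40 in every library, at 17.3 to 23.2 in *Gfi1*+/+ and 18.3 to 32.1 in *Gfi1*cre/+.

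*Myo1c*, which encodes a myosin linked to channel adaptation, was at 1787, 1968 and 2076 normalized reads in *Gfi1*+/+ and 2078, 2086 and 2120 in *Gfi1*cre/+ libraries. The groups were apart by a narrow gap, with a log2 fold change of 0.11 (limma, unadjusted p = 0.116), or 0.05 without *Gfi1*+/+ replicate 1. The log2 fold change was -0.15 for *Atp2b2*, which encodes the calcium pump of the bundle (1086 ± 111 against 979 ± 93.5, SD, n = 3). It was -0.12 for *Ankrd24* (1124 ± 54.4 against 1037 ± 99.0) and -0.10 for *Loxhd1* (220 ± 24.1 against 204 ± 1.61). *Piezo2*, which encodes a mechanically gated channel, had a log2 fold change of 0.06 (744 ± 184 against 759 ± 24.1). The groups overlapped for these 4 genes.

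**Figure D5:**
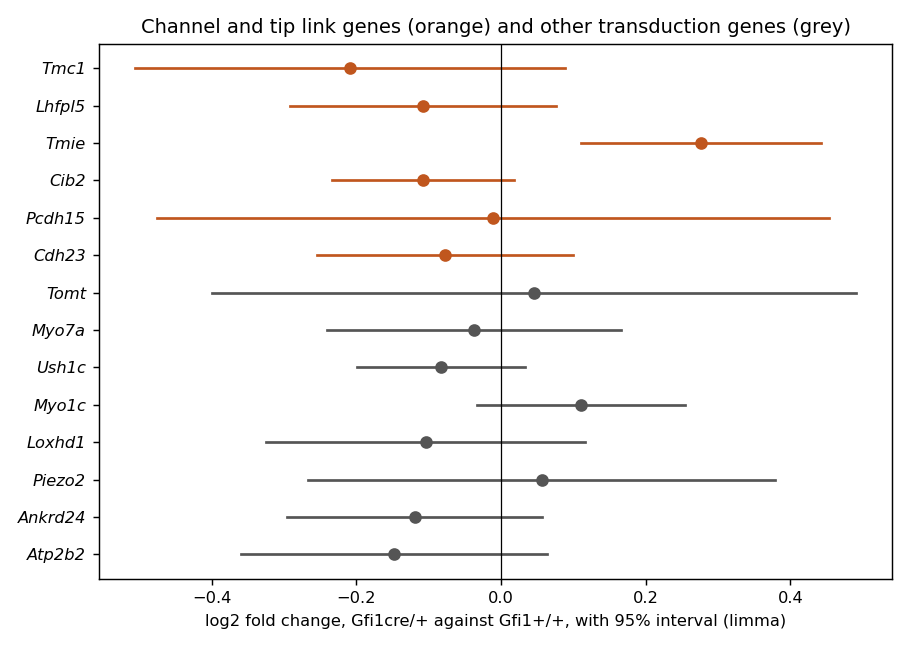
Log2 fold change (*Gfi1*cre/+ against *Gfi1*+/+) with its 95% interval from limma for the 6 channel and tip link genes (orange) and 8 other transduction genes (grey). *Tmie* is the only one of the 14 whose interval, not adjusted for multiple testing, excludes 0.

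Beyond transduction, 17 of 20 genes of the stereocilia were tested, with a median log2 fold change of -0.01 and 9 of 17 below 0. *Adgrv1*, listed under its older symbol *Gpr98*, encodes the ankle link receptor and was the only one with an unadjusted p below 0.05, at 90.1, 88.0 and 90.7 normalized reads in *Gfi1*+/+ and 84.4, 66.6 and 57.6 in *Gfi1*cre/+ libraries. The groups did not overlap, and the log2 fold change was -0.38 (limma, unadjusted p = 0.0489, adjusted p = 0.999). It passed that threshold with 1 library left out only without *Gfi1*cre/+ replicate 1, with log2 fold changes from -0.53 to -0.25. *Espn*, which encodes an actin-bundling protein, had a log2 fold change of -0.12. Of 15 paralogues of the *Tmc*, *Lhfpl* and *Cib* families, 9 were tested, with a median of 0.06 and 4 of 9 below 0. Only *Lhfpl4* had an unadjusted p below 0.05, with a log2 fold change of -0.72 (limma, unadjusted p = 0.0311, adjusted p = 0.999). It was highest in *Gfi1*+/+ replicate 1, the library with the highest neuron markers, at 197 against 82.3 and 118 in the other *Gfi1*+/+ libraries and 66.2 to 89.6 in *Gfi1*cre/+, and without that library its log2 fold change was -0.39 (limma, unadjusted p = 0.0927).

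The genes whose pattern over the 6 libraries was most like that of each gene were ranked by the SD of the log2 ratio, which is 0 for a constant ratio. For *Tmie*, they were *1500011B03Rik* (SD 0.0453), *Cox5a* (0.0609) and *Tmem8* (0.0760), and 36 of 5712 candidate genes had an SD below 0.1. For *Tmc1* they were *Nipal1* (0.0362), *Rassf6* (0.0757) and *Tmem229a* (0.0765), with 10 of 3637 candidates below 0.1. *Pcdh15* had *Fgf9* (0.0807), *Pik3cd* (0.0914) and *Nat8l* (0.1004) closest, with 2 of 1421 below 0.1. The steadier genes had many such neighbours, 2966 of 9923 candidates for *Lhfpl5*, 3270 of 10027 for *Cib2* and 1815 of 9321 for *Cdh23*. The closest were *Camk1d* (0.0207), *Trmt1* (0.0229) and *Gm12966* (0.0240) for *Lhfpl5*. They were *Dis3l* (0.0126), *Trappc6b* (0.0213) and *G6pc3* (0.0215) for *Cib2*, and *Cecr5* (0.0138), *Nfia* (0.0226) and *Ift88* (0.0233) for *Cdh23*. These SDs describe 6 libraries that share their scaling and their genotype difference. For each of the 6 genes, the SD of its closest gene was below its own counting error, which was 0.0470 to 0.118 in *Gfi1*cre/+. Picked as the closest of 1421 to 10027 candidates, the named genes are not shown to vary together with the 6. Candidates had a mean of at least 200 normalized reads and an SD of log2 values of at least that of the gene divided by 2. None of the other 5 channel and tip link genes was among the 3 closest to any of the 6. For many pairs this was set by the filter. *Pcdh15* was below that mean and could not be a candidate. *Lhfpl5*, *Cib2* and *Cdh23* varied too little to be candidates for *Tmc1* or *Pcdh15*, as did *Lhfpl5* and *Cib2* for *Tmie*.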

How the data were processed

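RNA-seq of the P8 cochlear duct was measured in 6 libraries. The authors used Tophat (mm10 build), discarded reads without a unique alignment, obtained gene counts from HTSeq-count and retained genes covered by 40 or more reads. Versions, annotation and strand setting are not given in the sources used here. The deposited signal is described as quantile-normalized, but 100% of the values were whole reads divided by 1 factor per library, 0.810 to 1.15 (tolerance of 0.0051 normalized reads, the rounding of the table). A count of 0 allows up to 3 reads, or 2.61 to 3.70 normalized reads (counting error only).

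Genes with a value of at least 40 in at least 1 library were tested (14455). The test was limma (version 3.58.1, R 4.3.3) with eBayes and a trend on log2(value + 1), genotype as the only term, two-sided, with Benjamini-Hochberg adjustment. This scale understates changes of low genes. Alternatives were other pseudocounts, filters, scalings and variance settings, a replicate block, each library left out, and edgeR (version 4.0.16) and DESeq2 (version 1.42.0) on recovered reads. Leaving out libraries for the other gene lists was added after seeing the data. Lengths and positions came from GENCODE (GRCm38), to which 14791 identifiers matched, and promoters from RefSeq, which held all 6 genes. The replicate numbers are not stated to pair samples. Steps were tested on simulated counts. The genes named are the 6 genes, every listed transduction gene, *Espn*, *Adgrv1*, genes of other lists with an unadjusted p below 0.05 (at most 5 a list), the 3 genes closest in pattern, and *Gfi1* and *Als2cl*. The value of 1 erythroid gene that this rule names is not reported here. The members, lists and rules were chosen with earlier results of these data known.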

Additional observations from a re-analysis of the deposited data

How the results depend on the processing

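Over 21 alternatives, the log2 fold changes of *Tmc1*, *Lhfpl5*, *Tmie*, *Cib2* and *Cdh23* kept their sign in 105 of 105 values. The filters, the trend and robust variance settings and the replicate block leave a log2 fold change as it was, so those signs were fixed in advance. The value of *Cdh23* came as near to 0 as -0.0015, relative to the HC markers. None of the 6 genes passed the adjusted threshold. *Pcdh15* reversed in 7 of 20, to 0.24 with array weights, 0.0391 with quantile normalization, 0.0266 relative to *Myo7a* and 0.0647 relative to the HC markers, and ranged from -0.26 to 0.20 with 1 library left out. It was not tested at a mean of at least 200. The *Lhfpl5*/*Cib2* difference turned to 0.0025 with a pseudocount of 10. With 1 library left out, the differences ranged from -0.0316 to 0.0404 for *Lhfpl5*/*Cib2*, -0.0887 to 0.0160 for *Lhfpl5*/*Cdh23*, -0.11 to 0.0271 for *Cib2*/*Cdh23*, -0.31 to 0.16 for *Lhfpl5*/*Pcdh15*, -0.30 to 0.16 for *Cib2*/*Pcdh15* and -0.18 to 0.23 for *Pcdh15*/*Cdh23*. The cause was not tested. Genes past the adjusted threshold numbered 4, all Y-linked, and 10 with DESeq2. At a mean of at least 200, a filter that removed the 4 Y-linked genes, there were 0 (229 unadjusted, limma). With 1 library left out there were 0 to 48. The 0 was without *Gfi1*cre/+ replicate 3 (248 unadjusted, limma), the library with the highest Y-linked sum, 1621. The 48 were without *Gfi1*+/+ replicate 3, and without *Gfi1*+/+ replicate 2 there were 8. Of the genes with an unadjusted p below 0.05, 33.5% were higher, 47.1% with quantile normalization, 49.8% relative to *Myo7a* and 84.7% relative to the HC markers. The replicate block gave 4 genes (462 unadjusted) and changed no call. Same-numbered samples correlated at -0.0944, 0.107 and -0.0326, and only replicate 2 correlated best with its own number. So few correlations cannot show whether the numbers pair samples.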

Other observations

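Among lists of other cell types in the cochlear duct, erythroid genes had log2 fold changes above 0 in 8 of 8. All 8 had an unadjusted p below 0.05 in limma, against 1.02% of tested genes counting only higher ones, and none passed the adjusted threshold. Their summed level was 29477 to 43833 normalized reads in *Gfi1*+/+ and 38346 to 66371 in *Gfi1*cre/+. *Slc4a1*, which encodes the anion exchanger of red cells, had a log2 fold change of 2.53 and *Hemgn* 3.75. *Hemgn* was at 0, 2.09 and 2.11 normalized reads in *Gfi1*+/+, below the level of 3 reads. *Gfi1*cre/+ replicate 1 was highest in both, at 851 against 178 and 168 for *Slc4a1* and 81.8 against 13.3 and 18.9 for *Hemgn*. Without it the values were 1.76 and 2.99. *Alas2*, the erythroid enzyme of haem synthesis, had 0.57 and *Hba-a2*, an alpha globin, 0.51, both with overlapping groups. With 1 library left out, an unadjusted p below 0.05 held for between 1 of 8 (without *Gfi1*cre/+ replicate 1) and 8 of 8, and for 3 of 8 without *Gfi1*+/+ replicate 1 or without *Gfi1*cre/+ replicate 2. Neuron markers had log2 fold changes below 0 in 11 of 12, against 50.1% of all tested genes, with a median log2 fold change of -0.78. An unadjusted p below 0.05 in limma was found in 5 of 12, against 2.02% of tested genes counting only lower ones. None passed the adjusted threshold. *Nefm* and *Nefh*, which encode neurofilaments, had log2 fold changes of -1.68 and -1.37, *Stmn2* -1.31, *Snap25* -1.22 and *Syt1* -0.24, and in each of these 5 the groups overlapped. Without *Gfi1*+/+ replicate 1, the library with the highest neuron markers, the values were -0.77 for *Nefm*, -0.81 for *Nefh*, -0.62 for *Stmn2*, -0.63 for *Snap25* and -0.16 for *Syt1*, the median was -0.33 and 1 of 12 had an unadjusted p below 0.05 in limma. With another library left out this count was 0 of 12 without *Gfi1*cre/+ replicate 1, 1 without *Gfi1*cre/+ replicate 2, 3 without *Gfi1*+/+ replicate 2, 4 without *Gfi1*cre/+ replicate 3 and 8 without *Gfi1*+/+ replicate 3, where 1 of the 12 passed the adjusted threshold. Without *Gfi1*+/+ replicate 1, the log2 fold change of *Tmie* was 0.27 (limma, unadjusted p = 0.0126). Of the stria vascularis list, *Kcne1*, a potassium channel subunit, had a log2 fold change of 0.13 (limma, unadjusted p = 0.0452). At an unadjusted p below 0.05 there were 0 of 13 supporting cell genes, 0 of 11 glia genes, 0 of 11 macrophage genes and 0 of 9 mesenchyme genes in limma, and none passed the adjusted threshold.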
